A study of Mus musculus with 8 samples.

Results

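Cxcr2, Cxcr4, Itgam, Itgb2, Fpr1 and Fpr2, genes of neutrophil trafficking, were taken by name from a single-cell table of 32285 mouse genes, so 6 of 32285 genes are described here. All 6 were detected. They were followed along the maturation of neutrophils in culture and compared between a culture with the bile acid deoxycholic acid and its media control. Whole bone marrow cells were cultured for 1 week on pre-irradiated AFT024, a mouse fetal liver stromal line used as a feeder layer, either in long-term culture medium alone (media control) or with deoxycholic acid at 35 µM, and lineage-negative cells were then sorted. Both groups therefore share the feeder layer, the hydrocortisone-containing medium and the sort. Only cells left by the sort are described, and its effect on the mature cells and on the 6 genes was not tested. The labels state no strain, sex or age of the marrow donors.

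Neutrophils are made in the bone marrow from granulocyte-monocyte progenitors (GMP) and pass through promyelocyte and myelocyte stages before they leave for the blood. In general knowledge of this lineage, the receptor Cxcr4 holds cells in the marrow through its ligand Cxcl12, and Cxcr2, the receptor of Cxcl1, Cxcl2 and related chemokines, draws mature cells out. Itgam (CD11b) pairs with the beta 2 subunit Itgb2 (CD18) to form the integrin Mac-1, which binds Icam1 and complement fragments when a neutrophil adheres and crawls. Fpr1 and Fpr2 are G protein-coupled receptors for formylated peptides shed by bacteria and mitochondria, and they guide the last steps toward a site of damage.

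The table held 9346 barcodes of the media control, with 183462851 unique molecular identifiers (UMIs, each a counted RNA molecule), and 8520 of the deoxycholic acid culture, with 131341422. Cell names carried only the group, so each group was 1 library, no test between groups was possible and no p-value is given. Levels are a gene's UMIs per 1000000 UMIs of the cells summed (CPM), with 95% intervals. These cover counting error only and are too narrow where UMIs of 1 cell go together. After filtering, 16240 cells remained, with a median of 18801 UMIs per media control cell and 14421 per deoxycholic acid cell. Of the 17 clusters, which were made without the 6 genes, 2 were named GMP-like, 4 immature neutrophil-like and 1, cluster 7, mature neutrophil-like. With 2 unnamed clusters, 1 led by F7 and Cdc6 (1508 cells) and 1 by histone genes (773 cells), these formed a neutrophil lineage of 12408 cells. The 2 unnamed clusters entered on few markers. The first had 2 raised GMP markers, and the second had 1, tied between the GMP and immature neutrophil lists. Neither had a marker of these lists among its 10 leading genes.

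Among the 3 named stages of the lineage, all 6 genes had their lowest CPM in GMP-like cells and their highest in mature neutrophil-like cells, in both libraries. The lineage cells were also ordered by maturation, as described below. Primary granule genes summed to 25677 CPM in the first bin of cells and 173 CPM in the last. Late genes summed to 327 and 9149 CPM, but not all of them rose steadily. Clec4d was at 34.9 CPM in the first bin, 69.1 in bin 3 and 34.1 in the last. Slpi went from 225 CPM in the first bin to 69.9 in bin 6 and 318 in the last. Stfa2l1 was highest in bin 8, at 2052 CPM, and at 1248 in the last. The other late genes were highest in the last bin. In the mature class there were 602 cells of the media control library and 532 of the other. Its median depth was 5909.5 and 5106.5 UMIs per cell, far below the 25950.5 and 19955 of cluster 1, the larger GMP-like cluster. Levels in CPM therefore compare shares of each cell's RNA. As UMIs per cell, all 6 were also higher in mature than in GMP-like cells of both libraries; in the media control Cxcr2 went from 0.0160 to 1.47, Fpr2 from 0.0133 to 1.45 and Itgam from 0.896 to 3.96 UMIs per cell. The step from immature to mature cells was not the same on this scale. Itgb2 had 3.15 UMIs per immature and 1.95 per mature media control cell, and Cxcr4 had 0.264 and 0.244, so both were lower per cell there while higher in CPM, and deoxycholic acid cells gave the same directions.

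The integrin subunits were already present in progenitors. Itgam stood at 36.9 CPM in media control and 31.6 CPM in deoxycholic acid GMP-like cells. It was at 231 and 229 CPM in the immature class and at 637 and 580 CPM in the mature class. The mature level of Itgam was thus 17.3-fold that of GMP-like cells in the media control and 18.3-fold with deoxycholic acid. Itgb2, its partner, went from 44.5 and 47.9 CPM in GMP-like cells to 194 and 218 CPM in immature and 314 and 352 CPM in mature cells. The larger step of Itgb2 was the first, 4.36-fold and 4.56-fold, and the step from immature to mature cells was 1.62-fold and 1.61-fold. For shares of cells with a UMI, cells were thinned to 3000 UMIs and shallower cells left out; this kept 1499 of 1501 and 1220 of 1226 GMP-like cells and 539 of 602 and 467 of 532 mature cells, media control first. Among the cells kept, Itgb2 was detected in 11.9% and 12.95% of GMP-like and in 60.7% and 62.1% of mature cells; with no thinning these shares were 54.4% and 51.3% of GMP-like and 77.1% and 76.5% of mature cells.

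The chemokine receptors differed from each other in the same cells. Cxcr4 was at 3.93 CPM in media control and 3.91 CPM in deoxycholic acid GMP-like cells, at 16.2 and 14.7 CPM in immature and at 39.3 and 28.3 CPM in mature cells. Cxcr2 was at 0.659 and 0.547 CPM in GMP-like cells, from 24 and 13 UMIs in all. It reached 17.4 and 18.2 CPM in immature and 237 and 233 CPM in mature cells. The mature level was 359-fold (media control) and 427-fold (deoxycholic acid) that of GMP-like cells for Cxcr2, and 10.0-fold and 7.25-fold for Cxcr4.

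The formyl peptide receptors were close to absent from progenitors. Fpr2 had 20 UMIs in 1501 media control and 6 UMIs in 1226 deoxycholic acid GMP-like cells, or 0.549 and 0.252 CPM. It was at 26.7 and 28.5 CPM in immature and 233 and 240 CPM in mature cells. Fpr1 had 2 UMIs in media control GMP-like cells and 0 in deoxycholic acid ones, where a count of 0 allows up to 0.126 CPM. Fpr1 then reached 3.68 and 4.32 CPM in immature cells and 52.4 and 55.3 CPM in mature cells. For both receptors the share of cells with a UMI was highest in the mature class. Fpr2 was detected in 45.5% and 43.5% and Fpr1 in 13.7% and 17.8% of mature cells thinned to 3000 UMIs. With no thinning these shares were 62.3% and 58.5%, and 23.8% and 24.4%. The larger immature class still held more UMIs in both libraries summed, 2541 against 1555 for Fpr2 and 366 against 354 for Fpr1.

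To order the onsets, lineage cells were ranked by a score of 8 late genes minus 5 primary granule genes, none of them among the 6. They were cut into 10 bins of equal cell number. Of bin 3, 48.9% of cells were GMP-like and 0.48% immature, and of bin 4, 10.4% and 18.5%. The rest of these bins lay in the 2 unnamed clusters. The sum of the secondary granule genes, which were not in the score, peaked in bin 8, between the sums of the primary and the late genes. Singly, Camp and Ngp peaked in bin 7. Ltf, Lcn2 and Cd177 were highest in bin 10, as the late sum was, so they did not lie between. Onset was set at the first bin with at least 50% of a gene's highest bin. Itgb2 came first, at 45% of the ordered cells. Cxcr4 followed at 65% and Itgam at 75%, and Cxcr2, Fpr1 and Fpr2 came last, all at 95%, in the final bin. These values are for both libraries summed, in CPM. In media control cells alone Cxcr4 reached its onset at 75%, tied with Itgam. In deoxycholic acid cells alone it did so at 55%, and the other 5 had the same onset in each library. Median depth was 20147 UMIs per cell in bin 1 and 5749.5 in bin 10. As UMIs per cell of both libraries, the early members had no such order. Itgb2 went from 1.60 in bin 3 to 2.62 in bin 4 (highest 3.25). Cxcr4 went from 0.127 to 0.166 (highest 0.265) and Itgam from 1.16 to 1.98 (highest 3.60). Itgb2, Cxcr4 and Itgam all first reached 50% of their highest bin in bin 4. Fpr1 and Fpr2 did so in bin 9 and Cxcr2 in bin 10.

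**Figure D1:**
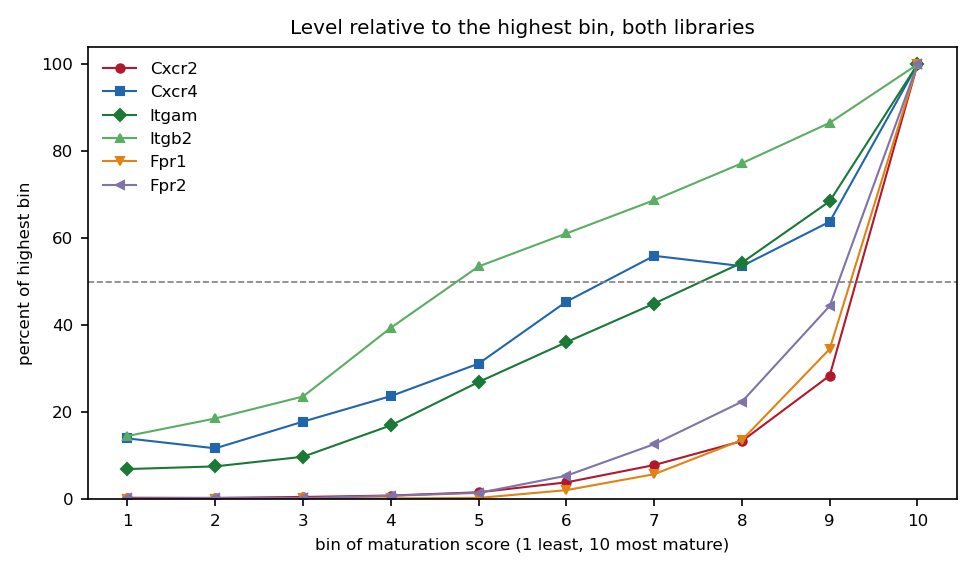
Level of each gene in 10 bins of the maturation score, as a percent of its highest bin, with UMIs of both libraries summed and the 50% line dashed. Itgb2 crosses the line at bin 5, Cxcr4 at bin 7 and Itgam at bin 8, and Cxcr2, Fpr1 and Fpr2 are under it until bin 10.

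The gap between early and late members was wide. In the first bin, Itgb2 stood at 44.2 CPM and Itgam at 36.9 CPM, 14.5% and 6.91% of their own highest bin. Cxcr4 there was at 4.47 CPM, 14.0% of its highest bin. Cxcr2 was at 0.612 CPM, 0.307% of its highest bin, and Fpr2 at 0.344 CPM, 0.173%. Fpr1 had no UMI in the first bin. From the first to the last bin the level was 6.89-fold higher for Itgb2, 7.16-fold for Cxcr4, 14.5-fold for Itgam, 326-fold for Cxcr2 and 579-fold for Fpr2. For Fpr1 it was at least 398-fold higher, with the 0 of the first bin set at 3 counts.

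The late members were also concentrated in few cells. The last bin, 1240 cells, held 47.8% of all Cxcr2, 49.9% of Fpr1 and 37.8% of Fpr2 UMIs of the lineage. It held 13.6% of Itgam, 11.3% of Cxcr4 and 8.31% of Itgb2 UMIs. In CPM, Cxcr2 thus came on late and steeply and Itgb2 early and gradually. With 20 bins, Fpr2 reached its onset at 92.5% of cells and Cxcr2 and Fpr1 at 97.5%, so Fpr2 came slightly ahead of the other 2.

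**Figure D2:**
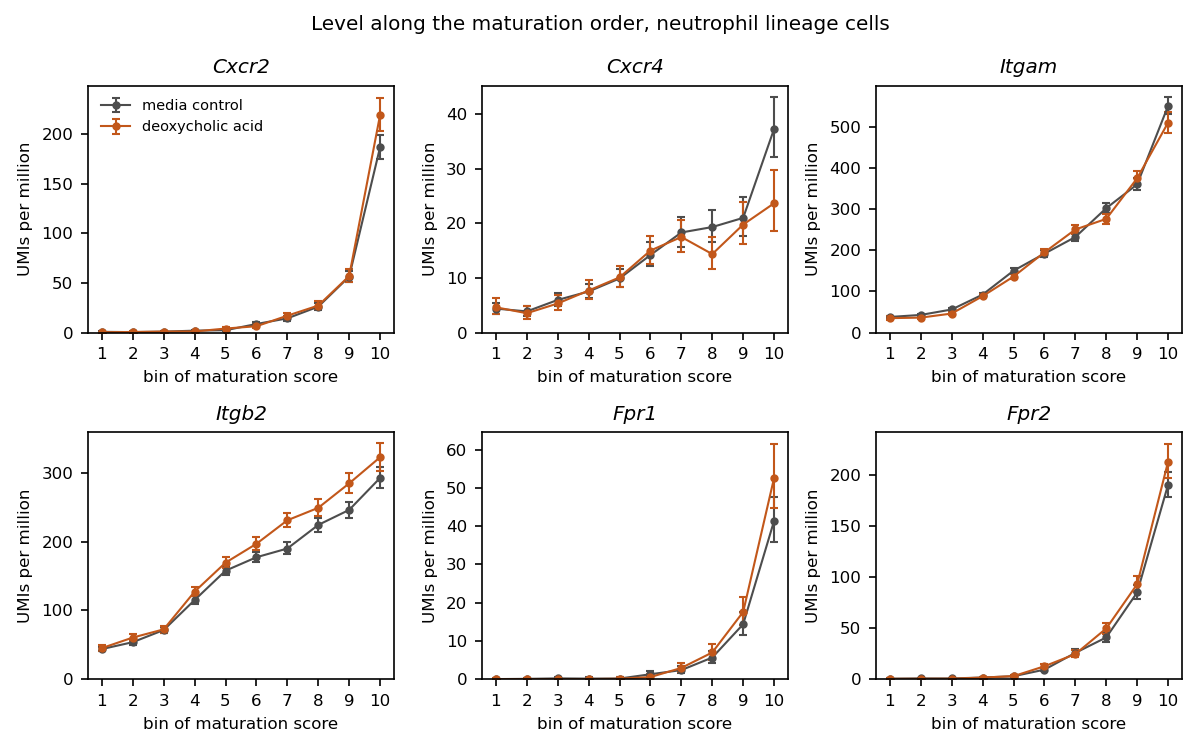
Level of each gene (CPM) in the 10 bins of the maturation score, with the media control in grey and deoxycholic acid in orange and bars for the 95% Poisson interval. Every gene is highest in bin 10 in both libraries; Cxcr4 is at 37.3 CPM in the media control and 23.7 CPM with deoxycholic acid there.

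In CPM, no loss was seen for Cxcr4, the marrow retention receptor. Along the 10 bins the summed level of Cxcr4 went 4.47, 3.74, 5.71, 7.59, 9.99, 14.6, 17.9, 17.2, 20.4 and 32.0 CPM, so 7 of 9 steps went up. No bin after the peak could lie below 50%, since the peak was the last bin. As UMIs per media control cell, Cxcr4 was highest in bin 7, at 0.304, and stood at 0.261 in bin 10; with deoxycholic acid these were 0.230 and 0.132. Cxcr4 and Cxcr2 thus had their highest CPM in the same bin. Among mature cells thinned to 3000 UMIs, a UMI of both was found in 5.75% (3.94 to 8.06) of the control cells and 2.78% (1.49 to 4.71) of those with deoxycholic acid. The products of the single shares, 4.95% and 3.48%, lay inside these intervals, which overlap.

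Promoter letters are shown for 4 members, since 3 of them (Cxcr2, Fpr1 and Fpr2) had the latest onset and Itgam an earlier one. The sequences are the 250 bases before the RefSeq gene start, build GRCm38.p6, 5′ to 3′ on the gene's strand. Searched on both strands were GAGGAA, the core of the purine box bound by the myeloid factor PU.1; a C/EBP motif, TTGCNNAA; and the RUNX core, TGTGGT. Only the purine box core matched, and capitals mark its matches, which read TTCCTC where it lies on the other strand. No matches overlapped.
Itgam, chr7:128062390-128062639, plus strand: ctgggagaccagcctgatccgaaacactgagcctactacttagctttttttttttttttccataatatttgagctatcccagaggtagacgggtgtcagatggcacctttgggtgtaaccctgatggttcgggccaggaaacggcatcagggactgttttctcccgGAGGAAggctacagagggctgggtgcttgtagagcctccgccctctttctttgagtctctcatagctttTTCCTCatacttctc
Cxcr2, chr1:74153744-74153993, plus strand: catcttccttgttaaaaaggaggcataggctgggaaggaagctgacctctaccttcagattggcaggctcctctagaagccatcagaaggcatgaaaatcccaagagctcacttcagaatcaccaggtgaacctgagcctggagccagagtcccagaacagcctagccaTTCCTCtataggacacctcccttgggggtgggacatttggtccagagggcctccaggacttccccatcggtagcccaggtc
Fpr2, chr17:17887574-17887823, plus strand: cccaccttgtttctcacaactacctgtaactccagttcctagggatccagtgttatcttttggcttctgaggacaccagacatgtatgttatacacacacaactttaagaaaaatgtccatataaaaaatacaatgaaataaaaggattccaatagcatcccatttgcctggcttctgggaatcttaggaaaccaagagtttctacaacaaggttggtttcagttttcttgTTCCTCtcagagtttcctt
Fpr1, chr17:17883940-17884189, minus strand: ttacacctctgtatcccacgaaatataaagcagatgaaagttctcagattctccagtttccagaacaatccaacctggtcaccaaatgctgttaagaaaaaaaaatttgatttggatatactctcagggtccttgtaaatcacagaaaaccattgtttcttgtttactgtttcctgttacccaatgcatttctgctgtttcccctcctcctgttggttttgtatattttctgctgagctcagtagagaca

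Itgam held 2 matches to GAGGAA, the last beginning 15 bases before the start. Cxcr2 and Fpr2 held 1 each, beginning 81 and 19 bases before the start, and Fpr1 and Cxcr4 held none. A match was common, since 23.3% of all 32851 promoters of this length held GAGGAA, 9.56% TTGCNNAA and 14.0% TGTGGT. Itgb2 was not matched in the promoter table. Fpr1 and Fpr2 are neighbours on chromosome 17, transcribed away from each other with starts 3885 bases apart. Fpr2 overlaps Fpr3 on the same strand in the GENCODE annotation, and Itgam overlaps Gm49368, which shares 19.2% of the 60-base words in the last 500 bases of Itgam transcripts. Reads of these pairs may be split between the genes; Fpr3 had 1 UMI in the media control and 2 in the deoxycholic acid library.

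Across the 15 clusters with at least 50 cells in each library, the members fell into a graded order of likeness. Pearson correlations of log2(CPM + 10) over these clusters, which share libraries, were 0.94 for Itgam with Itgb2, 0.93 for Fpr1 with Fpr2 and 0.92 for Cxcr2 with Fpr1. The weakest was 0.47, for Cxcr4 with Fpr1. By this measure over 7056 genes, Lilra6, Tlr13 and Dop1b were most like Cxcr2 (0.99 to 0.98). Rbl2, Ints6l and Gsk3b were most like Cxcr4 (0.98 to 0.97). For Itgam these were Vasp, an actin-binding protein, Anxa11 and Cnn2 (0.99 to 0.98), and for Itgb2 Gpsm3, Arrb2, an arrestin, and Cotl1 (0.99 to 0.98). For Fpr1 they were Slfn1, Ggt5 and Il1b, and for Fpr2 Bst1, Cmtm6 and Slfn4, all at 0.96 or higher. Il1b is 1 of the late genes of the score.

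Outside the neutrophil lineage, cluster 12, monocyte-like with Vcan leading, held Cxcr2 at 79.4 CPM in media control and 100.5 CPM in deoxycholic acid cells, second to cluster 7 among these 15 clusters. The 10 leading genes of cluster 12 also included Mmp8 and Wfdc17, both on the list of mature neutrophil markers. Whether neutrophils or their RNA were part of this cluster was not tested. Fpr1 in cluster 12 was at 29.1 and 25.3 CPM, also second. Cluster 13, basophil-like, had Cxcr4 at 41.8 and 46.9 CPM with no Fpr1 UMI in either library, and its Cxcr4 interval overlapped that of cluster 7. In cluster 14, unnamed with 6 raised stromal fibroblast markers, no cell of 150 had a UMI of Cxcr2, Cxcr4 or Fpr1, which allows a share of cells with a UMI of up to 2% and does not limit cells that express the gene, and 1 cell had an Fpr2 UMI. Of the 21 Itgam UMIs of its deoxycholic acid cells, 15 lay in 1 cell. These cells had a median of 3409 UMIs. The shares of mature neutrophil-like cells with a Cxcr2 UMI were 65.8% and 62.4%, at a median of 5909.5 and 5106.5 UMIs. Thinned to 3000 UMIs, they were 46.0% and 46.5%.

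**Figure D3:**
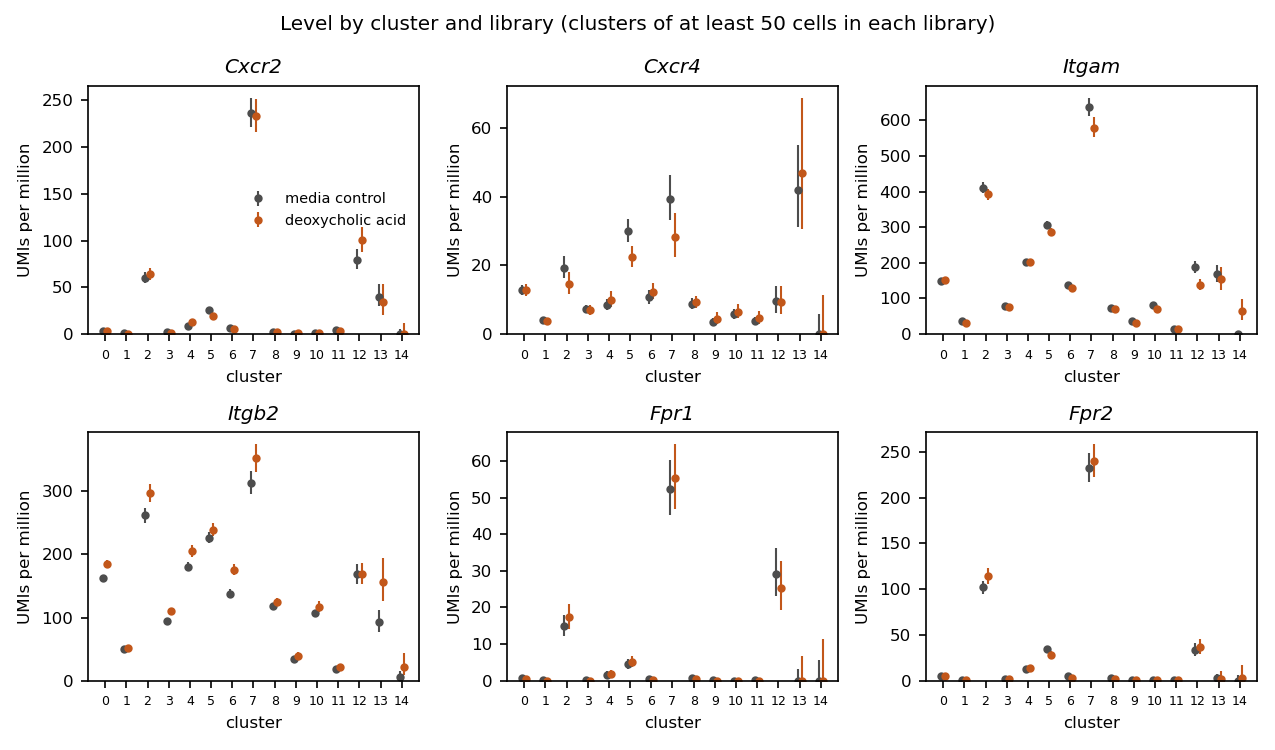
Level of each gene (CPM) by cluster number, with the media control in grey and deoxycholic acid in orange and bars for the 95% Poisson interval. Cluster 7 (mature neutrophil-like) is highest for Cxcr2, Itgam, Itgb2, Fpr1 and Fpr2, and clusters 13 (basophil-like) and 7 are highest for Cxcr4.

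Deoxycholic acid was set against the media control first over all kept cells. Itgb2 was at 119 CPM in the media control and 143.8 CPM with deoxycholic acid, a log2 ratio of 0.27 (0.24 to 0.30). Cxcr2 was at 13.9 and 15.3 CPM (log2 ratio 0.14, 0.052 to 0.23) and Fpr2 at 15.1 and 17.0 CPM (0.17, 0.087 to 0.26). Cxcr4 was level at 10.3 CPM in both, with an interval of -0.11 to 0.11. Itgam was at 129.8 and 133.2 CPM (0.038, 0.0079 to 0.067), and its direction turned under other scalings, to -0.019 with TMM factors. Fpr1 was under 5 CPM in both libraries.

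None of the 5 members with at least 5 CPM passed a log2 ratio of 0.5 either way, where 4.5% of 8203 genes did. The same count was 0 of 2 members in GMP-like cells, where 7.01% of genes passed, 0 of 5 in immature cells (3.47%) and 0 of 6 in mature cells (14.8%). Over these 4 sets of cells no member at 5 CPM or more thus passed the limit in CPM. With TMM factors Cxcr4 did so in mature cells, at -0.52. The share of all genes past the limit was not counted with that scaling. Within single clusters 3 members at 5 CPM or more did. Cxcr2 passed it in immature cluster 4 (8.90 against 12.97 CPM, log2 ratio 0.54, 0.14 to 0.95), at percentile 95.6 of all genes there. With TMM scaling this ratio was 0.42, inside the limit, and that of Itgam in cluster 12 was -0.52, past it. Itgb2 passed it in basophil-like cluster 13 (93.6 against 157 CPM, 0.75, 0.32 to 1.16), at percentile 86.2. From few UMIs, Itgam and Itgb2 passed it in cluster 14 (1 against 21 and 4 against 7 UMIs), at percentiles 99.97 and 90.4. Along the maturation score Cxcr4 did so in the last bin. The share of all genes past the limit was not counted for single clusters or bins. These passes are therefore given as values only and not as a result about the members.

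**Figure D4:**
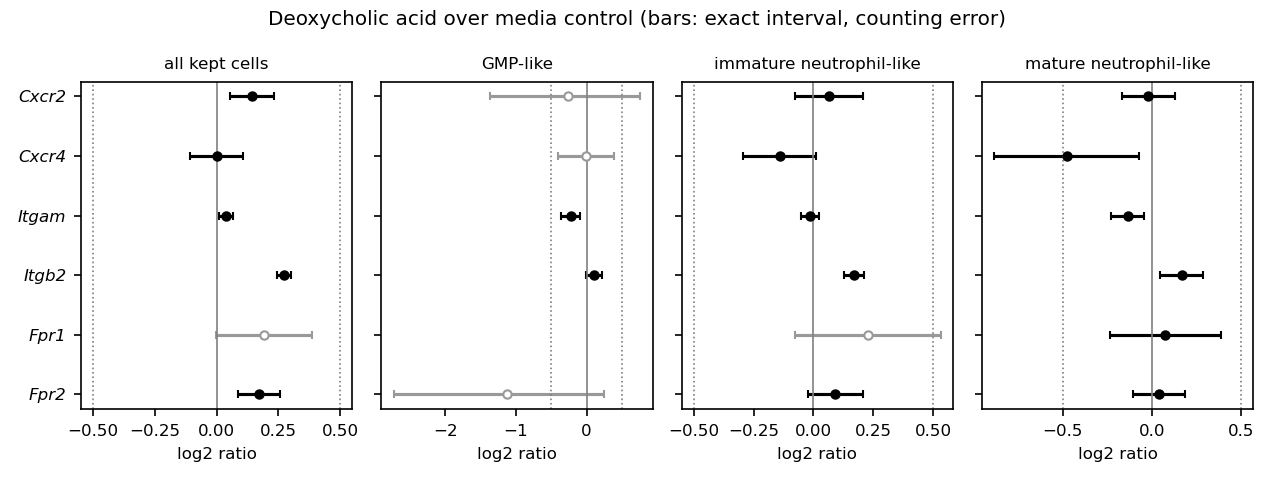
Log2 ratio of deoxycholic acid over media control for each gene in 4 sets of cells, with exact intervals for counting error, on a separate scale in each panel; dotted lines are at 0.5 either way, open grey points are genes under 5 CPM, and Fpr1 has no value in GMP-like cells. Itgb2 lies above 0 in all 4 panels and Cxcr4 lies lowest in mature cells, at -0.47.

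Itgb2 had the most even direction, though not size. In GMP-like cells it was at 44.5 and 47.9 CPM, with an interval that spanned 0 (log2 ratio 0.11, -0.0042 to 0.22). It was at 194 CPM in media control and 218 CPM in deoxycholic acid immature cells (log2 ratio 0.17, 0.13 to 0.21; 0.078 with TMM factors) and at 314 and 352 CPM in mature cells (0.17, 0.044 to 0.29). Along the maturation score Itgb2 was higher with deoxycholic acid in 10 of 10 bins, with the interval above 0 in 8. By cluster it was higher in 15 of 15, with the interval above 0 in 8, and in the 14 with at least 50 of its UMIs it ran from 0.0084 in cluster 12 to 0.75 in cluster 13. With TMM scaling these counts were 9 of 10 bins and 13 of 15 clusters, clusters 1 and 12 being lower. The median of all genes over all kept cells was 0.054, and the 0.27 of Itgb2 lay at percentile 87.5 of them. Within the stages it lay nearer the middle, at percentile 60.7 in GMP-like, 68.4 in immature and 67.8 in mature cells, where the medians of all genes were 0.045, 0.084 and 0.038.

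Itgam, the alpha partner, did not follow Itgb2. It was lower with deoxycholic acid in GMP-like cells, at 36.9 against 31.6 CPM (log2 ratio -0.22, -0.36 to -0.094), and in mature cells, at 637 against 580 CPM (-0.14, -0.23 to -0.045). In immature cells it was at 231 and 229 CPM, with an interval of -0.054 to 0.025. The ratios in GMP-like and mature cells lay at percentiles 14.2 and 28.6 of all genes. Over all lineage cells the log2 ratio of Itgam was 0.029 (-0.0040 to 0.061). Along the maturation score it was lower in 7 of 10 bins, with the interval below 0 in 5. It was higher in 3 bins, with the interval above 0 in bin 7 (0.11, 0.024 to 0.20). By cluster, Itgam was lower in 12 of 15, with the interval below 0 in 6, and lower in 14 of 15 with TMM scaling. In monocyte-like cluster 12 it was at 187.5 against 138.1 CPM.

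Cxcr4 was lower with deoxycholic acid in mature cells and in 2 of the 4 immature clusters. In mature cells 147 UMIs gave 39.3 CPM in the media control and 81 UMIs gave 28.3 CPM with deoxycholic acid (log2 ratio -0.47, -0.88 to -0.072). That ratio lay at percentile 7.9 of all genes. Of the 14 clusters with a value, Cxcr4 was higher with deoxycholic acid in 8 and lower in 6, with the interval below 0 in 3. Besides cluster 7, the Cxcr4 interval lay below 0 in clusters 2 (19.3 against 14.5 CPM) and 5 (29.99 against 22.4 CPM), both immature neutrophil-like. In immature cluster 4 it was higher, at 8.41 against 9.95 CPM, and in immature cluster 0 level at 12.7 CPM, with intervals that spanned 0, as did that of the whole immature class (-0.14, -0.30 to 0.012). Thinned to 3000 UMIs, 10.8% (8.27 to 13.7) of media control and 7.49% (5.28 to 10.3) of deoxycholic acid mature cells had a Cxcr4 UMI, and these intervals overlap; with no thinning the shares were 19.4% and 13.3%. Along the score, Cxcr4 intervals spanned 0 in bins 1 to 7 and in bin 9, where it was at 20.99 against 19.8 CPM and its thinned share was 5.70% against 6.95%. They lay below 0 in bin 8, at 19.3 against 14.4 CPM, and in bin 10, at 37.3 against 23.7 CPM (log2 ratio -0.66). Of the lineage cells, the first bin had 11.3% of the control library and 8.57% of the other, and the last bin 10.6% and 9.28%, so the cell mix differed as well. Markers of mature neutrophils summed to 10586 CPM in the media control and 8939 CPM with deoxycholic acid in the mature class, and basophil markers, from 3 and 4 of 6 detected genes, to 5.08 and 4.55 CPM, with Ms4a2 and Fcer1a at 0; their part in the Cxcr4 difference was not tested.

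For Cxcr2, Fpr1 and Fpr2 the mature libraries could not be told apart at this depth. Cxcr2 was at 237 and 233 CPM (log2 ratio -0.020, -0.17 to 0.13), Fpr2 at 233 and 240 CPM (0.042, -0.11 to 0.19) and Fpr1 at 52.4 and 55.3 CPM (0.076, -0.24 to 0.39). In the last bin of the score, which is cut differently, all 3 were higher with deoxycholic acid: Cxcr2 at 187 against 219 CPM (0.23, 0.085 to 0.38), Fpr2 at 190 against 213 CPM and Fpr1 at 41.4 against 52.6 CPM. Cxcr2 was lower in immature cluster 5 (26.1 against 19.5 CPM) and higher in immature cluster 4, and its interval over the whole immature class spanned 0.

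Around the members, 105 other genes of trafficking were counted. Of these, 62 had at least 5 CPM in either library over all kept cells; 0 were higher and 2 lower past a log2 ratio of 0.5, beside 4.5% of all genes. The 2, named after their values were seen, were Ccr2 (9.39 against 5.39 CPM), a monocyte chemokine receptor, and Rgs1 (20.7 against 14.6 CPM), a regulator of G protein signalling. The median log2 ratio of the 62 was 0.14. All 8 measured integrin subunits other than the members lay above 0 (median 0.21), as did 59.5% of all genes (median 0.054), among them Itgal, the alpha partner of Itgb2 in LFA-1, at 36.5 against 46.7 CPM, and Itgb2l at 70.5 against 91.1 CPM. Itgb1 was at 86.0 against 95.2 CPM and Itga4 at 33.8 against 37.5 CPM. Among ligands, Anxa1, which binds Fpr2, was at 544 CPM in the media control and 386 CPM with deoxycholic acid (log2 ratio -0.50), just inside the limit.

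Levels of the wider pathway also differed between the ends of the lineage. A gene was counted if it had at least 5 CPM in either stage of either library, so genes low in progenitors entered through their mature level alone, and the counts describe the genes that entered and support nothing further. With 10 CPM added, 6 of 6 members were higher in mature than in GMP-like cells by a log2 ratio of at least 1 in both libraries, where 15.6% of 9043 genes were; only Itgam and Itgb2 of the 6 had 5 CPM in GMP-like cells. Of 27 other chemoattractant receptors, 10 entered, 3 of them with 5 CPM in GMP-like cells, and 6 were higher: Ccr1 went from 4.04 CPM in GMP-like to 234 CPM in mature media control cells, C5ar1 from 5.66 to 155 CPM, Ltb4r1 from 91.8 to 220 CPM and S1pr4 from 10.8 to 49.0 CPM. Selectins and their ligands gave 6 of 9, with Cd177 going from 40.3 to 1189 CPM and Cd44, a hyaluronan receptor, from 31.9 to 353 CPM. Other integrin subunits gave 2 of 8 higher, Itgal (17.9 to 91.8 CPM) and Itgb2l (13.7 to 233 CPM), and 1 lower, Itga4 (40.2 to 13.9 CPM). Integrin activation genes gave 6 of 12 higher, among them Tln1, the integrin adaptor talin, at 211 and 515 CPM, and 1 lower, Rasgrp2, at 198 and 64.2 CPM. Receptor signalling genes gave 15 of 22, among them Gnai2 (436 to 981 CPM) and Rac2 (372 to 784 CPM). Ligands gave 3 of 7 higher, Cxcl2, a ligand of Cxcr2 (70.3 to 645 CPM), Anxa1 and C3, and 1 lower, Vcam1.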

How the data were processed

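Single-cell RNA libraries of lineage-negative cultured marrow cells were made with a 10x Genomics 3′ kit, per the labels' protocols. The submitters' processing notes name Cell Ranger 6.0. Not given in the sources used here: build, annotation and cell filter. Each deposited value is a raw UMI count for 1 gene in 1 cell. Although 4 lettered samples stand behind each group in the labels, column names tell only control from DCA, so each group was taken as 1 library, and the planned test for separate samples was not run. The 2 libraries shared 25 barcodes.

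Cells with at least 300 genes and at most 10% mitochondrial UMIs were kept. Scrublet's automatic threshold marked 1 cell in each library, which showed that it had not worked, so the highest 6% of its scores were removed, leaving 8479 media control and 7761 deoxycholic acid cells. Both libraries were clustered together with no integration (scanpy 1.11.5): 2000 variable genes without the 6 members, 30 principal components, 15 neighbours and Leiden at resolution 1 (leidenalg 0.10.2). Cxcr2 and Fpr2 were still among the leading genes of cluster 7, and Fpr2 of cluster 2, so the classes are not independent of genes that go with them. A cluster of at least 50 cells was named from the list with the most raised markers, at least 3, with 1 or more among its 10 leading genes and no other list holding more there. Cluster 2, named immature neutrophil-like, also had raised mature markers.

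UMIs were summed over cells and given as CPM with exact Poisson intervals; ratios have exact intervals from the binomial split of UMIs and shares have Clopper-Pearson intervals. The ratio and onset steps were tested on simulated data. TMM factors came from edgeR 4.0.16 and size factors from DESeq2 1.42.0, on the 2 sums only. Python 3.11.15, numpy 2.4.6, scipy 1.17.1 and R 4.3.3 were used. Named genes are the 6 members, the 4 genes with the highest mean CPM in each group of the trafficking list, of which some are given, and the 3 genes most like each member. The members and lists were chosen with earlier results of these data known. Promoters are RefSeq's (GRCm38.p6) and overlaps are from GENCODE; neither is known to be the authors' annotation.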

Additional observations from a re-analysis of the deposited data

How the results depend on the processing

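No paired analysis was possible because the columns carry no sample letters and each group is 1 library; for the same reason no replicate could be left out. Over all kept cells, the log2 ratio of Itgam turned to -0.019 with TMM factors, -0.018 with DESeq2 size factors, -0.029 as a mean over cells and -0.13 as the mean within 3 stages. That mean within stages also turned Cxcr2 to -0.075 and Fpr2 to -0.33, and moved Cxcr4 to -0.21 and Itgb2 to 0.15. The Fpr2 value rests on 26 UMIs in GMP-like cells. As a mean over cells, Cxcr2 moved to 0.047, Cxcr4 to -0.20, Fpr2 to 0.020 and Itgb2 to 0.23. Itgb2 was 0.22 with TMM factors, 0.22 with DESeq2 size factors and 0.23 in lineage cells only. The cause was not tested. In mature cells Cxcr2 and Fpr2 changed sign within their intervals, the other members did not, and Cxcr4 ranged from -0.52 to -0.40. In immature cells Itgb2 stayed above 0 (0.078 to 0.21), the lowest with TMM factors, and each of the other members took both signs; with 3 equal parts of the score as classes Fpr1 was -0.44 and Cxcr4 0.070, and at resolution 0.5 Cxcr2 was -0.24. At resolution 0.5 no cluster was named mature neutrophil-like, so that class has no value there. Onset of Itgb2 moved to 55% when thinned to 3000 UMIs and, in an alternative chosen after seeing the data, to 55% with the unnamed clusters of at least 1000 cells; onset at 25% of the highest bin was 45% for Cxcr4 and 45% for Itgam. In CPM, Itgb2 came first, Cxcr4 no later than Itgam, and Cxcr2, Fpr1 and Fpr2 last in every setting tried. As UMIs per cell, Itgb2, Cxcr4 and Itgam reached their onset in the same bin, so their order holds for CPM only. With no minimum level, 23 trafficking genes lay past 0.5, against 2. Depth limits Fpr1 and Cxcr2 in early cells, where few UMIs stand behind each value.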
